A study of Rattus norvegicus with 32 samples.

Results

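The comparison described here sets Losartan against PD123319 in C6 cells, an established glioma line of the rat, 3 h after Ang II. It rests on the 8 arrays labelled Ang II+Los and Ang II+PD123319 at 3 h, 4 replicates of each, out of 32 arrays in the series. All cells of both groups received Ang II at 100 nM. They also received an antagonist at 10 µM, given 30 min before Ang II: Losartan in the Ang II+Los group and PD123319 in the Ang II+PD123319 group. Untreated cells (Control) and cells with Ang II alone stood beside them on the same slides at 3 h, and another 16 arrays held the same 4 groups at 6 h. Each RNA was hybridized with a single dye to an Agilent rat array. The study used the antagonists to separate the contributions of the 2 angiotensin receptors, and here each antagonist group is the other's reference, since both contain Ang II and both contain a drug at the same dose and time.

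Ang II, the effector peptide of the angiotensin system, acts on the receptors AT1 and AT2, which both belong to the family that couples to G proteins. AT1 couples to Gq and is known for calcium release, protein kinase C and ERK signalling, transactivation of the EGF receptor, and induction of early genes and matrix genes. AT2 is known for actions that often oppose AT1. Losartan is an antagonist of AT1 and PD123319 of AT2.

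The genes placed first in this report are Ctgf, Areg and Nppb, which code for a matricellular growth regulator, a ligand of the EGF receptor and a natriuretic peptide. All of them were higher with Losartan than with PD123319 on each of the 4 slides, as were 1868 of the 13628 genes tested. They were picked after their values were seen. The 250 bases before their annotated starts are shown because these genes differed in the same direction and the letters let a reader compare their motifs. They come from RefSeq on GRCr8, at chr1:22624615-22624864 (minus strand) for Ctgf, which RefSeq now names Ccn2, at chr14:17265642-17265891 (minus strand) for Areg and at chr5:163699758-163700007 (plus strand) for Nppb. Capitals mark GGAATG, the motif of TEAD factors, in Ctgf and Nppb, and TGACGTCA, the CRE motif, in Areg.
Ctgf: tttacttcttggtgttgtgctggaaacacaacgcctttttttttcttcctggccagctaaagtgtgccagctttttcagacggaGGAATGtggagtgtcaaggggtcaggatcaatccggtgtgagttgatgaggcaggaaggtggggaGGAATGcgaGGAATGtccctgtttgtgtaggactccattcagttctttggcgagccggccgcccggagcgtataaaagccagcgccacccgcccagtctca
Areg: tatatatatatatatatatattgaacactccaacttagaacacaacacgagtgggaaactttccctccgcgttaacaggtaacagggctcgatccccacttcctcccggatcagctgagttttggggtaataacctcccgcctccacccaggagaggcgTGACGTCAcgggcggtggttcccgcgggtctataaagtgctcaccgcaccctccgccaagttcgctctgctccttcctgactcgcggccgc
Nppb: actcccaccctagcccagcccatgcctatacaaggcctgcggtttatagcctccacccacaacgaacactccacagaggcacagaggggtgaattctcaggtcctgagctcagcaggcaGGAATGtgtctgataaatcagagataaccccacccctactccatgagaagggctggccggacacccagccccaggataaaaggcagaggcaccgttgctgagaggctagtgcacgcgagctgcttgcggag

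Both strands were searched. The Ctgf stretch holds 3 TEAD matches, and 25 of 27457 RefSeq promoters of this length (0.0911%) hold at least 3. No motif was found in all of the windows shown. At least 1 TEAD match was found in 11.8% of all promoters and a CRE match in 1.7%. Among 82 windows of genes higher with Losartan, also after any 1 slide was left out, the TEAD share was 9.76%. These are descriptions of the letters in these windows and not of binding.

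The arrays are described before the genes, because the slides differed. The replicate number is the slide, and a slide held 1 array of each group, Losartan at position 3 and PD123319 at position 4 throughout, so that array position and antagonist cannot be told apart. The file headers give slides 1 and 2 the same scan day (called scan 1 here), and slides 3 and 4 another (scan 2). The labels do not say whether the replicates were separate cultures, so the p-values given here measure only the spread between these samples, which may be technical. After normalization, the SD over genes of the difference Ang II+Los minus Ang II+PD123319, on the log2 scale, was 0.568 on slide 1, 0.864 on slide 2, 0.239 on slide 3 and 0.173 on slide 4. The difference exceeded 1 in absolute value for 868 genes on slide 1, 2253 on slide 2, 33 on slide 3 and 23 on slide 4. Across 13593 genes, the differences on slides 1 and 2 correlated with r = 0.67, those on slides 3 and 4 with r = 0.19, and the pairs made of slides from separate scans with r between -0.28 and 0.14. These correlations are across genes, which are not independent replicates. The array that stood farthest from the fit of the 16 was that of Ang II+Los on slide 2. The residual SDs were 0.282, 0.425, 0.277 and 0.246 for Ang II+Los on slides 1 to 4 and 0.150 to 0.214 for Ang II+PD123319, while those of Control and Ang II on slide 2 were 0.309 and 0.283. Spots well above background made up 59.2% ± 3.70 (SD, n = 4) of the Ang II+Los arrays and 61.0% ± 3.51 (SD, n = 4) of the Ang II+PD123319 arrays, with p = 0.5 in an exact paired permutation test, two-sided, whose smallest possible p is 0.125. Values of slides 3 and 4 (scan 2) are therefore also given.

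The limit used here, an unadjusted p under 0.05, is the one the study applied, though to another test. In the limma fit to the 16 arrays of 3 h, with the slide as a block, 1990 of 13628 genes tested (14.6%) passed it. Of these, 1033 (7.58%) were higher with Losartan and 957 (7.02%) were lower. After Benjamini-Hochberg adjustment 0 genes passed, and the lowest adjusted p from limma was 0.340. No single gene below is therefore established by the adjusted test, and the values describe these arrays. The unadjusted count also depended on the test. With the study's kind of test it was 562 genes (4.12%) paired by slide and 193 (1.42%) unpaired, both below 5%. With limma on the 8 arrays alone it was 715 of 13354 genes (5.35%). Counts under other settings, some of them higher, are given further below. A log2 difference above 1 was found for 1 of the 1033 genes higher with Losartan, and one below -1 for 152 of the 957 lower ones. The medians of these genes were 0.40 and -0.51, with a median standard error of 0.16 over all genes tested. This error and every SE below come from the fit, with the spread pooled over the arrays of all groups, Control and Ang II included. They do not measure the spread of the 4 slide differences of a gene, which are given for many genes. The sign was the same on all 4 slides for 1248 of the 1990 genes (9.16% of all genes tested), of which 734 were higher and 514 lower with Losartan. In bulk RNA such as this, fewer cells with a transcript and less of it per cell cannot be told apart.

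The count depended on the slides. With slides 1 and 2 alone it was 3377 genes (24.8% of those tested), 1471 higher and 1906 lower with Losartan, and 234 genes then had an adjusted p under 0.05 in limma, with a lowest value of 0.0307. With slides 3 and 4 alone it was 250 genes (1.83%), 183 higher and 67 lower, and 0 after adjustment (lowest adjusted p of 1). Without slide 1 it was 421, without slide 2 it was 403, without slide 3 it was 2576 and without slide 4 it was 2128. A total of 81 genes passed the unadjusted limit in both scans, which is 2.4% of the genes of scan 1 and 32.4% of those of scan 2. The latter share stands beside the 24.8% of all genes tested that passed in scan 1. Only 33 of the 81 had the same direction, 23 higher and 10 lower with Losartan, while 42 were lower in scan 1 and higher in scan 2 and 6 the reverse. Among the 42 were Qsox1, a sulfhydryl oxidase, with -2.91 in scan 1 and 0.52 in scan 2, and Phlda1, an ERK-responsive gene, with -1.60 and 0.35. These genes were chosen after their values were seen.

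**Figure D1:**
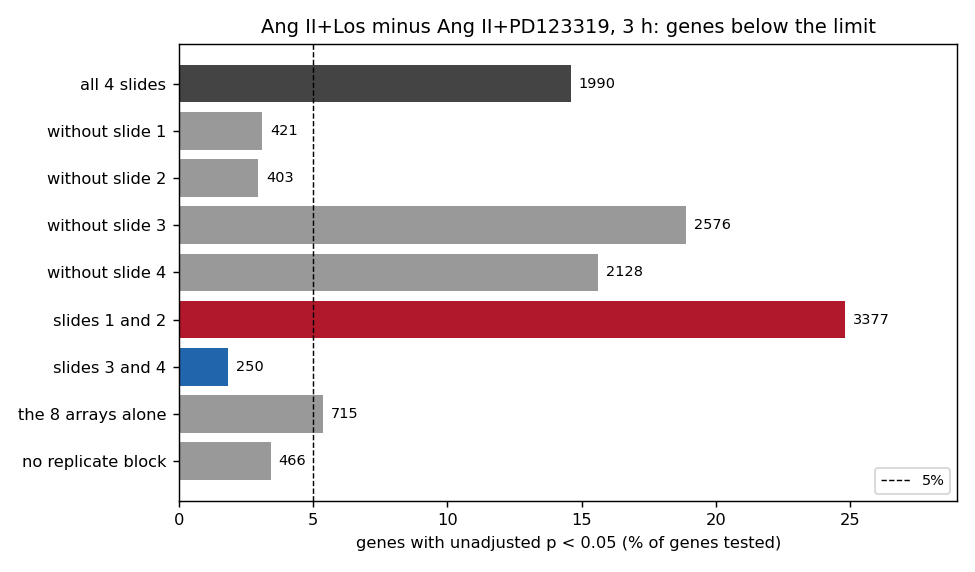
Share of genes with an unadjusted p under 0.05 for Ang II+Los minus Ang II+PD123319 at 3 h (horizontal axis, % of genes tested), for fits with different slides or settings (vertical axis), with the number of genes printed at each bar and a dashed line at 5%. The bar of slides 1 and 2 reaches 24.8% and that of slides 3 and 4 ends at 1.83%.

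**Figure D2:**
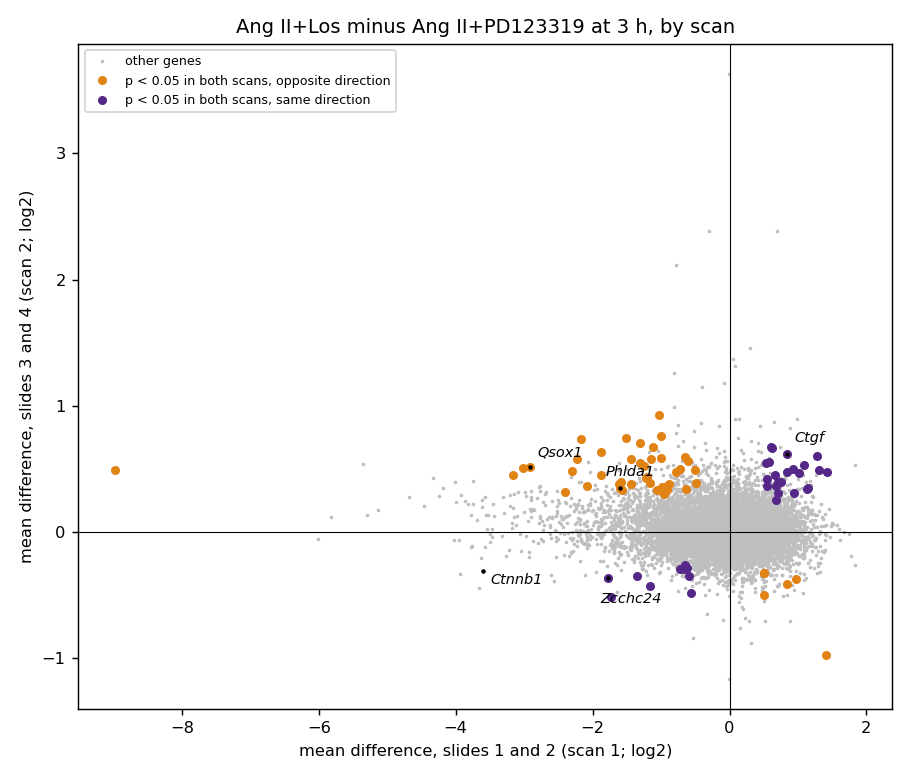
Mean log2 difference of each gene on slides 1 and 2 (horizontal axis) against slides 3 and 4 (vertical axis), with 33 genes past the unadjusted limit in both scans in the same direction (purple), 48 in opposite directions (orange) and all others in grey. Ctgf lies at 0.84 and 0.62, Ctnnb1 at -3.60 and -0.31, and most orange points lie in the upper left.

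A set of 152 genes (1.12% of those tested) had an unadjusted p under 0.05 in the fit of the 4 slides and also after any single slide was left out, 114 of them higher and 38 lower with Losartan. This set was picked by the contrast itself, so its values are a description. So is the agreement of sign on the 4 slides, which held for 148 of the 152 against 24.1% of all genes tested. The genes described next, up to Cdkn2c, belong to this set unless a sentence says otherwise. They are ordered by role.

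Among growth factor and peptide genes, Ctgf had log2 signals of 13.23, 11.87, 11.12 and 11.08 with Losartan and of 12.44, 10.96, 10.48 and 10.49 with PD123319, slide by slide. The levels of a group spread over more than a log2 unit and the groups overlapped, but within each slide Losartan was higher, by 0.59 to 0.90. The mean difference was 0.73 ± 0.17 (SE, n = 4 slides; unadjusted p = 0.000944 in limma), and in scan 2 alone it was 0.62. Control and Ang II averaged 11.77 and 11.75. Ang II+Los minus Ang II was 0.07 for Ctgf and Ang II+PD123319 minus Ang II was -0.66, from comparisons that share the Ang II arrays. The Ctgf level with Losartan was thus near that with Ang II alone, and the level with PD123319 lay below both. The Ctgf probe lies at 21327574-21327633 of chromosome 1 on rn4, the build of the file headers, on the minus strand.

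Areg, which codes for amphiregulin, had 7.81, 8.36, 6.86 and 7.63 with Losartan and 7.31, 6.83, 6.32 and 7.23 with PD123319. The difference was 0.74 ± 0.16 (SE, n = 4 slides; unadjusted p = 0.000675 in limma), with 1.53 on slide 2 and 0.40 to 0.54 on the other slides. In scan 2 alone it was 0.47. Areg averaged 7.23 in Control and 7.17 in Ang II, with 0.49 for Ang II+Los minus Ang II and -0.25 for Ang II+PD123319 minus Ang II. Nppb had 10.40, 8.94, 8.56 and 7.999 with Losartan and 10.05, 7.79, 8.12 and 7.64 with PD123319. Slide 1 was highest in both groups, and Losartan was higher within each slide, by 0.35 to 1.15. The Nppb difference was 0.57 ± 0.15 (SE, n = 4 slides), and it was 0.40 in scan 2 alone.

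**Figure D3:**
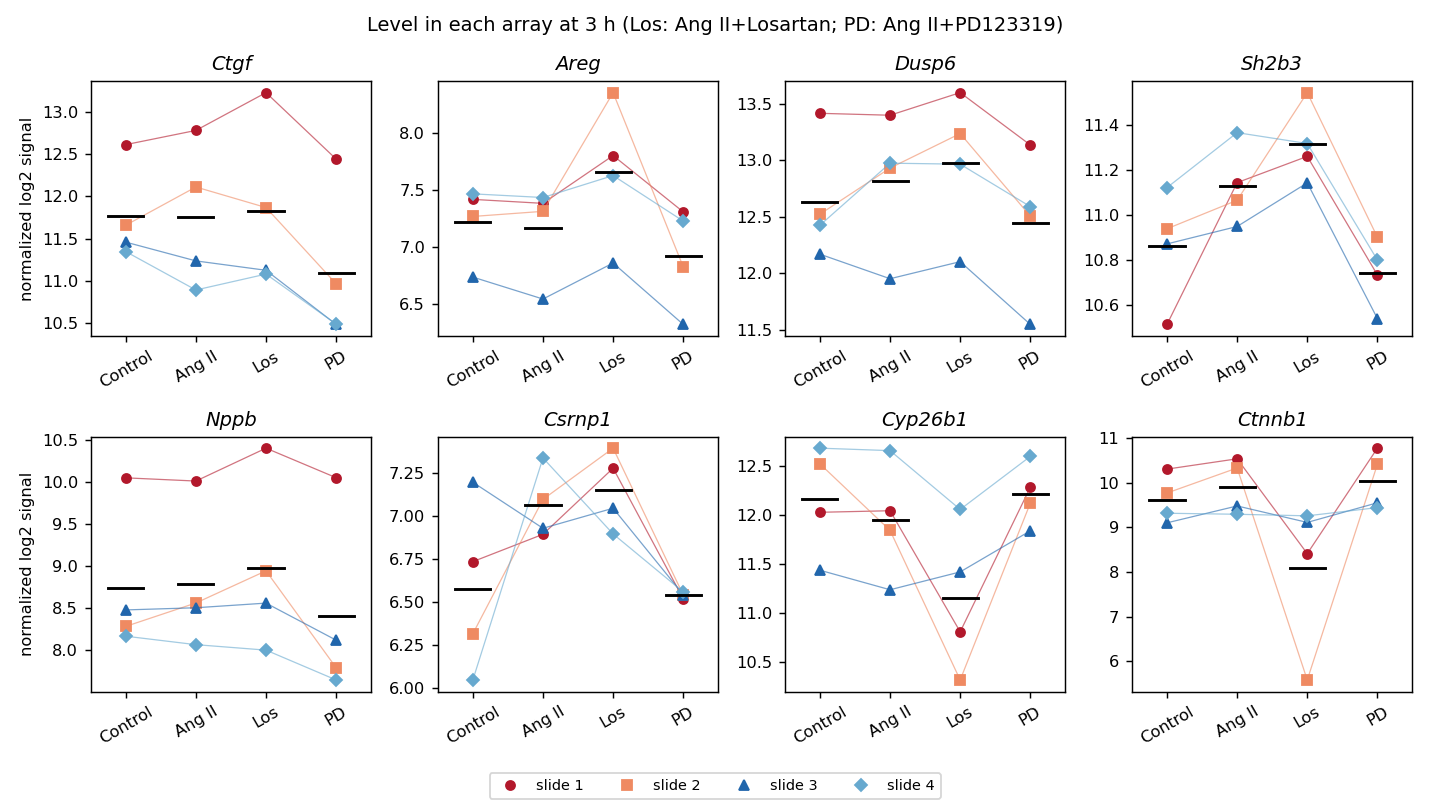
Normalized log2 signal (vertical axes) of 8 genes on each of the 16 arrays of 3 h by group (horizontal axes), with a colour and a line for each slide and a black bar for the group mean. Ctgf, Areg, Dusp6, Sh2b3, Nppb and Csrnp1 are higher with Losartan than with PD123319 on every slide and Cyp26b1 and Ctnnb1 lower, Ctnnb1 mostly on slides 1 and 2.

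Dusp6, Sh2b3, Errfi1 and Nab2, taken from the same set, were also higher with Losartan on every slide. Dusp6, a phosphatase of ERK, had 13.60, 13.24, 12.10 and 12.96 with Losartan and 13.13, 12.51, 11.55 and 12.59 with PD123319, a difference of 0.53 ± 0.14 (SE, n = 4 slides). Sh2b3, an adaptor that dampens cytokine and growth factor receptors, had 11.26, 11.54, 11.14 and 11.32 against 10.73, 10.90, 10.54 and 10.80, and here the groups did not overlap. All 4 Losartan arrays lay above all 4 PD123319 arrays in 0.77% of all genes tested, and below them in 0.345%. The Sh2b3 difference was 0.57 ± 0.12 (SE, n = 4 slides; unadjusted p = 0.000454 in limma), with 0.52 to 0.64 on the 4 slides and 0.56 in scan 2 alone. Errfi1, an inhibitor of the EGF receptor, differed by 0.37 and Nab2, a corepressor of EGR factors, by 0.36, both without overlap of the groups. Their levels were 9.73, 10.34, 9.77 and 9.82 with Losartan against 9.39, 9.69, 9.53 and 9.55 for Errfi1. For Nab2 they were 12.26, 12.40, 12.30 and 12.48 against 11.90, 11.95, 11.90 and 12.24.

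Csrnp1, a nuclear early response protein, had 7.28, 7.39, 7.04 and 6.89 with Losartan, and its PD123319 arrays lay within 6.52 to 6.56, without overlap. Its difference was 0.61 ± 0.21 (SE, n = 4 slides) and lost the unadjusted limit when a slide was left out, so it is not in the set of 152. Ang II alone averaged 7.06 for Csrnp1 and Control 6.57. Tnfrsf12a, the receptor of TWEAK, had 12.92, 12.29, 12.63 and 12.62 against 12.53, 12.05, 11.87 and 12.24. The Tnfrsf12a difference of 0.44 ± 0.13 (SE, n = 4 slides) was larger in scan 2 (0.57) than in scan 1 (0.31). Fst, the activin-binding protein follistatin, had 11.52, 10.80, 9.59 and 11.26 against 11.32, 9.94, 9.02 and 10.95, a difference of 0.48 ± 0.14 (SE, n = 4 slides).

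For Sh2b3, Dusp6, Errfi1, Nab2, Nppb and Fst, Ang II+Los minus Ang II was 0.18, 0.16, 0.08, 0.11, 0.19 and 0.10. Ang II+PD123319 minus Ang II was -0.38, -0.37, -0.29, -0.25, -0.38 and -0.39 for the same genes. Over all genes tested, 10.9% had an unadjusted p under 0.05 in Ang II+Los minus Ang II and 2.99% in Ang II+PD123319 minus Ang II, and these comparisons share the Ang II arrays with each other and an antagonist group each with the comparison described here. For the genes just named, the Losartan level was above that of Ang II by 0.08 to 0.19 and the PD123319 level below it by 0.25 to 0.39.

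Mgp, Hapln1, Sdc1, Mmp13 and Flt1, which act in the matrix or at the cell surface, were taken from the genes of the set higher with Losartan. Mgp, matrix Gla protein, had 6.97, 7.57, 6.28 and 6.06 with Losartan and 6.45, 5.55, 5.94 and 5.20 with PD123319, a difference of 0.94 ± 0.22 (SE, n = 4 slides), and of 0.60 in scan 2 alone. Hapln1, a link protein of hyaluronan and proteoglycans, had 4.61, 6.55, 5.63 and 5.95 against 3.44, 5.43, 5.45 and 5.44, a difference of 0.75 ± 0.15 (SE, n = 4 slides) that was 1.14 in scan 1 and 0.35 in scan 2. Sdc1, a cell surface heparan sulfate proteoglycan, differed by 0.39 and Mmp13, a collagenase, by 0.58, with 0.26 and 0.43 in scan 2. Both were higher with Losartan on all 4 slides. Flt1, a receptor of VEGF, had 4.88, 5.53, 4.76 and 4.99 against 4.24, 4.48, 4.27 and 4.53, without overlap. Its difference was 0.66 ± 0.14 (SE, n = 4 slides).

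The gene with the largest difference in favour of Losartan among those that met the naming criteria was Ccrn4l, now Noct, which codes for nocturnin, a phosphatase of NADPH under clock control. It had 7.53, 7.92, 6.83 and 6.50 with Losartan and 6.58, 6.03, 6.56 and 5.82 with PD123319. The difference was 0.95 ± 0.21 (SE, n = 4 slides; unadjusted p = 0.000742 in limma), with 1.42 in scan 1 and 0.47 in scan 2. Slc30a1, a zinc exporter, differed by 0.67, 0.66, 0.44 and 0.47 on slides 1 to 4. Nin, a centrosomal protein, differed by 0.57, 0.68, 0.59 and 0.74, and its scan means were 0.63 and 0.66. The differences of Slc30a1 and Nin were closer between the scans than that of Ccrn4l.

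Genes lower with Losartan were fewer in the set of 152, and those named here differed most on slides 1 and 2. Cyp26b1, which degrades retinoic acid, had 10.81, 10.32, 11.42 and 12.06 with Losartan and 12.28, 12.12, 11.84 and 12.60 with PD123319. The difference was -1.06 ± 0.27 (SE, n = 4 slides; unadjusted p = 0.00201 in limma), with -1.64 in scan 1 and -0.48 in scan 2. Control and Ang II averaged 12.17 and 11.95 for Cyp26b1, so that the Losartan mean of 11.15 was the one that stood apart. Fzd2, a receptor of Wnt ligands, differed by -0.88, -1.68, -0.35 and -0.23 on slides 1 to 4. Zcchc24, a zinc finger gene, differed by -1.04, -2.52, -0.33 and -0.40. Cdkn2c, an inhibitor of the kinases that drive the cell cycle through G1, differed by -0.72, -1.61, -0.48 and -0.37. In Ang II+Los minus Ang II these genes gave -0.58 for Fzd2, -0.84 for Zcchc24 and -0.67 for Cdkn2c, and 0.21, 0.23 and 0.13 in Ang II+PD123319 minus Ang II.

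By the naming criteria (unadjusted p under 0.05, same sign on the 4 slides, a signal well above background on the 8 arrays, and a gene symbol), 818 genes were eligible, 525 higher and 293 lower with Losartan. The 12 highest were Ccrn4l, Mgp, Nrarp, Tapbpl, Polr2d, Deadc1, Fam69a, Gpr155, Tsn, Hapln1, Hook1 and Areg, with differences of 0.74 to 0.95. Nrarp, an inhibitor of Notch signalling, differed by 0.20, 1.58, 1.30 and 0.35 on slides 1 to 4. The 12 lowest were Ctnnb1, Stk25, Arpc4, Ptprs, Slc9a3r1, Nrm, B3gat3, Hsd3b7, Cnp, Sh3gl1, Cirbp and Cat, with differences of -1.95 to -1.14. Ctnnb1, which codes for beta-catenin, had 8.41, 5.58, 9.11 and 9.26 with Losartan and 10.77, 10.41, 9.55 and 9.44 with PD123319, without overlap of the groups. The difference was -1.95 ± 0.64 (SE, n = 4 slides; unadjusted p = 0.00999 in limma), but it was -3.60 in scan 1 and -0.31 in scan 2. For Stk25, a kinase of the Golgi and of cell polarity, the scan means were -3.27 and -0.19. For Arpc4, a subunit of the Arp2/3 actin nucleator, they were -2.88 and -0.08. Cat, which codes for catalase, differed by -0.76, -3.15, -0.31 and -0.32 on slides 1 to 4. For each of the 12 lowest genes, the differences on slides 1 and 2 were larger in size than those on slides 3 and 4.

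**Figure D4:**
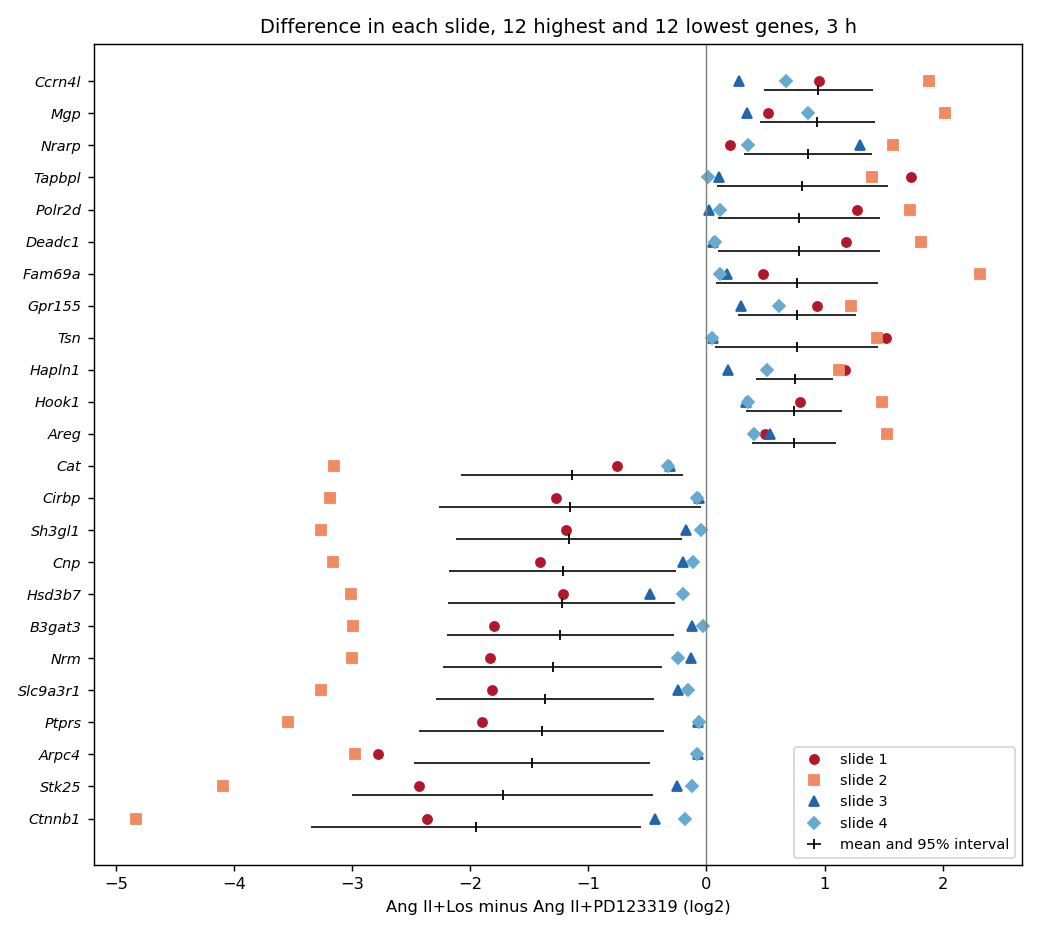
Log2 difference Ang II+Los minus Ang II+PD123319 (horizontal axis) of the 12 highest and 12 lowest genes (vertical axis), with a symbol for each slide and a bar for the mean with its 95% interval below the symbols. For the 12 lowest genes slides 1 and 2 lie far to the left, such as -2.36 and -4.83 for Ctnnb1, and slides 3 and 4 near 0.

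The targets of the drugs could not be read on these arrays. Of 20 genes of the angiotensin system on the array, 10 were tested. Agtr1a, Agtr1b and Agtr2, the genes of AT1 and AT2, were well above background on 0 of the 16 arrays of 3 h, as was Mas1. Of the 10 tested, 1 was higher and 2 were lower at the unadjusted limit. Among these were Nln, a peptidase that cleaves angiotensin peptides, with 0.24, and Prcp, a carboxypeptidase that cleaves Ang II, with -1.57. On slides 3 and 4 Prcp differed by -0.02 and 0.09 and Nln by 0.10 and 0.06. Agtrap, the AT1 receptor-associated protein, differed by 0.08 with a 95% interval of -0.14 to 0.31. The median of the 10 genes was 0.02, against 0.00 over all genes tested.

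Downstream of the receptors, the lists are described by counts beside the 14.6% of all genes tested. Of 28 tested genes of Gq, calcium and receptor desensitization, 1 was higher and 1 lower. These were the subunits of calcineurin Ppp3cb with 0.58 and Ppp3ca with -0.79, which were at -0.03 and 0.07 in scan 2. Of 24 immediate early genes, 3 were higher and 3 lower, with a median of -0.09. The largest were Bhlhe40, a clock repressor, with -1.62, Nr4a2, a nuclear receptor, with -0.81, and Csrnp1 with 0.61. Klf4, a zinc finger factor, followed with 0.42. In scan 2, Bhlhe40 turned to 0.22, Nr4a2 was at -0.02 and Klf4 at 0.02. Fosl1, an AP-1 subunit named here beyond the largest ones, had 11.27, 11.16, 10.69 and 10.83 with Losartan against 11.15, 10.74, 10.11 and 10.56, and a difference of 0.35 ± 0.13 (SE, n = 4 slides).

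The early genes and the feedback genes of ERK had list medians of opposite sign in the scans. This was not particular to them, since most of the gene lists did so, among them those of the cytoskeleton, the matrix, TGF-beta and Wnt. For the 24 immediate early genes the median was 0.00 on slide 1, -0.45 on slide 2, 0.11 on slide 3 and 0.16 on slide 4. For the 16 tested ERK feedback genes it was -0.17, -0.31, 0.21 and 0.17 in the same order. Of the latter, Dusp6 was higher and Etv1, an ETS factor, with -1.36, and Dusp14, a phosphatase, with -0.40, were lower. In scan 2 Etv1 was at 0.01 and Dusp14 at -0.18. Slides 1 and 2 alone gave 7 of these 16 at the unadjusted limit against 24.8% of all genes, with a list median of -0.18. Slides 3 and 4 alone gave 4 of these 16 at the unadjusted limit against 1.83% of all genes, namely Dusp5, Etv5, Phlda1 and Rasa1, with 0.35 to 0.40. They were picked by this fit after their values were seen, as was the gene named next. Egr1, a zinc finger early gene, was at 0.53 in scan 2. It had 6.97, 6.02, 6.05 and 7.37 against 7.98, 6.66, 5.37 and 6.98, so both slides of scan 1 went the other way. In the fit of the 4 slides Egr1 was at -0.15 and did not pass.

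Of 10 tested genes in the EGF receptor list, the ligand Areg and the inhibitor Errfi1 were higher. Erbb3, a partner of ERBB2, was lower with -0.31, and with -0.12 in scan 2. Hbegf, another ligand, was at 0.20 with a 95% interval of -0.15 to 0.54, and its differences of 0.13 to 0.25 had the same sign on all 4 slides. Of 18 tested YAP-TEAD targets and Hippo kinases, Ctgf and the kinase Stk4 with 0.29, and 0.23 in scan 2, were higher and 0 were lower. The median of this list was -0.07, with -0.10, -0.06, 0.13 and 0.11 on slides 1 to 4. Ctgf, at 0.73, lay apart from this median. Slides 3 and 4 alone gave 3 of the 18, against 1.83% of all genes: Ctgf, Crim1 and Lats2, all higher with Losartan and picked after their values were seen. Slides 1 and 2 alone gave 1 of the 18, against 24.8% of all genes, with a list median of -0.20.

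Of 26 tested genes of the contractile and adhesion cytoskeleton, 2 were higher and 6 lower. The largest of the lower ones were Cfl1, which severs actin filaments, with -1.11, Myh9, a non-muscle myosin, with -0.92, Pfn1, an actin monomer binder, with -0.90, and Actn1, an actin crosslinker, with -0.64. The list median was -0.27 and -0.77 on slides 1 and 2 and 0.08 and 0.01 on slides 3 and 4, and with slides 3 and 4 alone 0 of the 26 passed, with Cfl1 at 0.13, Myh9 at -0.01, Pfn1 at -0.12 and Actn1 at 0.06. Of 33 tested genes of the matrix, integrins and matrix proteases, 7 were higher and 3 lower, with a median of -0.04 and 13 of the 33 above 0. The largest were Mgp with 0.94, Sparc, a collagen-binding protein, with -0.78, Itga6, a laminin receptor subunit, with 0.49, and Col4a1, of basement membrane collagen, with 0.48. In scan 2 Sparc was at 0.05, Itga6 at 0.42 and Col4a1 at 0.14. Of 16 TGF-beta genes, 2 were higher and 3 lower. Ltbp1, which anchors latent TGF-beta, with -1.33, and Id2, a target of BMP signals, with -1.02, were near 0 in scan 2 (0.06 and -0.10). Skil, a feedback repressor of SMADs, was at 0.44, with differences of 0.35 to 0.51 on all 4 slides.

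**Figure D5:**
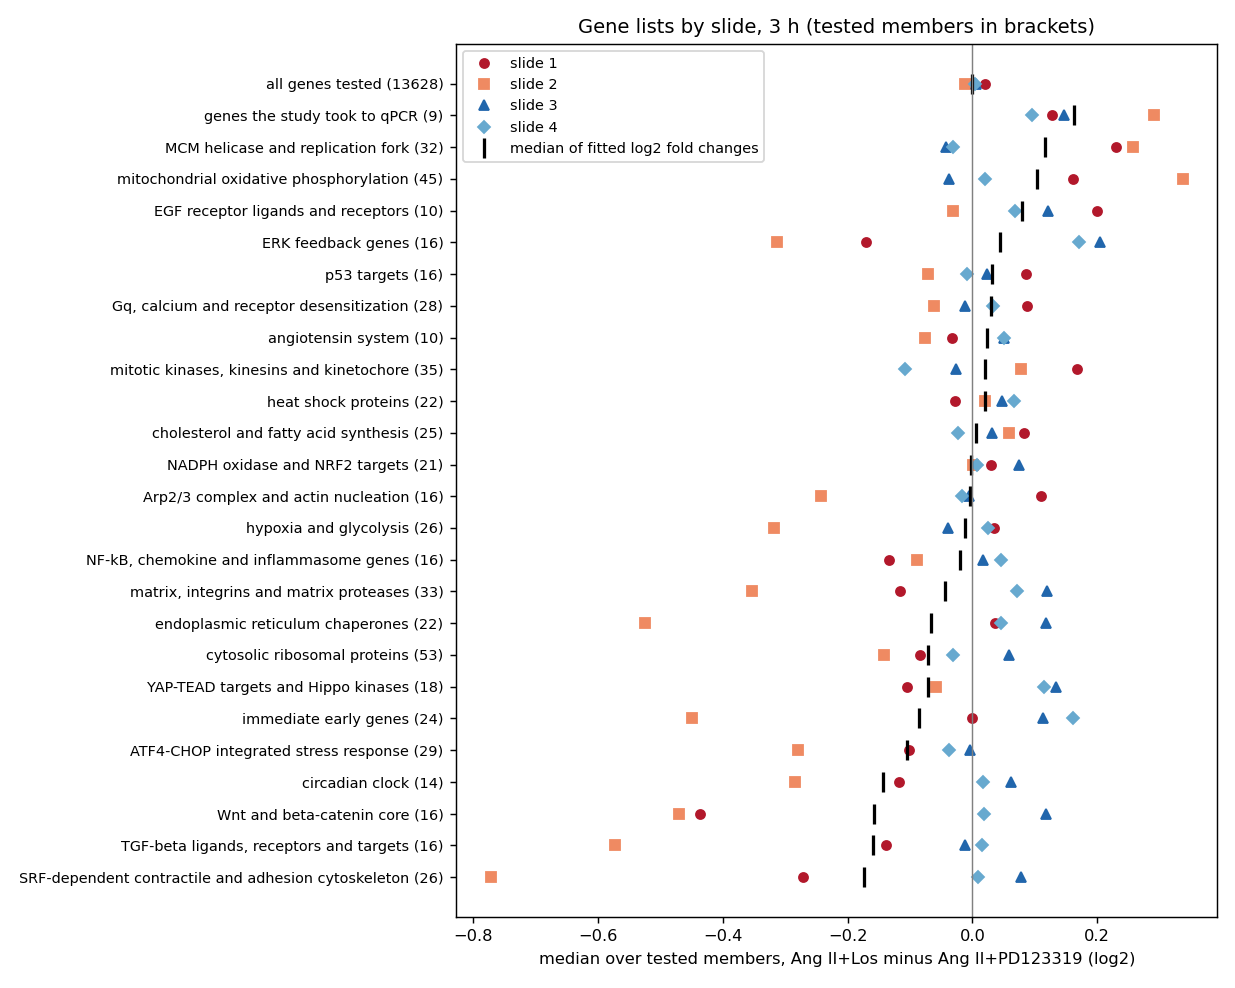
Median log2 difference Ang II+Los minus Ang II+PD123319 over the tested members of each gene list (horizontal axis), by slide (symbols) and as the median of the fitted values (black bar), for the lists named on the vertical axis with their tested members in brackets. Slides 1 and 2 spread from -0.77 to 0.34, while slides 3 and 4 stay between -0.11 and 0.21.

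Of 16 genes of the Wnt core, Ctnnb1 and Fzd2 were lower, and Lrp5, a Wnt co-receptor, with 0.39, and Wisp1, a matricellular target, with 0.34, were higher. In scan 2 Lrp5 and Wisp1 were at 0.21 and 0.25. Axin2, a feedback inhibitor of the pathway, was at -1.02 in scan 1 and 0.93 in scan 2, so the sign of this gene depended on the scan. Of 26 hypoxia and glycolysis genes, 0 were higher and 5 lower. They were led by Car9, a carbonic anhydrase, with -0.83, and Pfkl and Aldoa, enzymes of glycolysis, with -0.69 and -0.65. In scan 2 Car9 was at 0.08, Pfkl at -0.07 and Aldoa at -0.06. Ndrg1, a stress-responsive gene, differed by -0.13, -0.96, -0.46 and -0.39 on slides 1 to 4, and was at -0.54 in scan 1 and -0.43 in scan 2. Of 14 clock genes, Per2 with 0.69 and Cry1 with 0.43, repressors of the clock, were higher and Tef with -0.34 and Dbp with -0.24, transcription factors under clock control, were lower. In scan 2 Per2 was at 0.17, Cry1 at 0.14, Tef at -0.21 and Dbp at -0.26.

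Of 32 tested genes of the MCM helicase and the replication fork, 2 were higher and 4 lower. They were led by Mcm4 and Mcm6, subunits of the helicase, with -0.84 and -0.48, Pola1, a polymerase subunit, with -0.43, and Orc6, of the origin recognition complex, with 0.42. The median of this list was 0.12, above 0, while its members at the limit were mostly below 0. In scan 2 these were at -0.12, -0.25, -0.34 and 0.26. The probes of Mcm4 did not have the same sign. Of 35 mitotic genes, 2 were higher and 2 lower. Of 53 cytosolic ribosomal protein genes 0 passed in limma at the unadjusted limit, and of 45 genes of oxidative phosphorylation 1 did (Ndufv2, a subunit of complex I, with 0.35, and 0.05 in scan 2). Their medians were -0.07 and 0.10, with -0.03 and 0.02 on slide 4.

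Of the stress lists, 1 of 29 integrated stress response genes (Atf5, with -0.34), 1 of 22 genes in the endoplasmic reticulum list (Ero1l, with 0.29) and 5 of 22 heat shock genes passed. Hsph1, a cochaperone, with -1.04 in the fit of the 4 slides, was at 0.10 in scan 2, Atf5 at -0.05 and Ero1l at 0.21. Of 25 genes of sterol and fatty acid synthesis, Lss and Cyp51, enzymes of the cholesterol pathway, were higher with 0.28 and 0.26, and were at 0.17 and 0.16 in scan 2. Of 16 genes of NF-kB and chemokines, Peli1, a ubiquitin ligase, with 0.67, and Cxcl1, a neutrophil chemokine, with 0.53, were higher. In scan 2 the sign of Peli1 turned (-0.07) and Cxcl1 was at 0.64. Cxcl1 had 8.75, 10.21, 9.25 and 10.10 with Losartan and 8.86, 9.26, 8.40 and 9.68 with PD123319, and slide 1 was the exception to its direction. Of 21 genes of NADPH oxidase and NRF2, Cat and Rac1, a small GTPase, were lower, Rac1 with -0.64 and with -0.06 in scan 2.

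Of the 12 genes that the study took to qPCR, chosen by the study on these samples, 9 were tested on the arrays. Ctgf and Lamb1, a laminin chain, were higher and 0 were lower. Lamb1 had 10.10, 11.29, 11.11 and 11.51 with Losartan and 9.69, 10.85, 10.96 and 11.19 with PD123319, a difference of 0.33 ± 0.12 (SE, n = 4 slides) with 0.15 to 0.44 on the slides. Vegfa, the vascular growth factor, was at -0.21 with an interval of -0.76 to 0.33, and Bcar1, an adaptor of focal adhesions, at -0.15 with an interval of -0.39 to 0.08. The probes of Bcar1 did not have the same sign. Map2k4, Prkca and Aqp2 were at 0.20, 0.16 and -0.10, and Agtr1a, Agtr2 and Nlrp3 were not well above background on any of the 16 arrays.

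Markers of glia and of other cell types were also read. Vim, Nes, Cspg4, Pdgfra, S100b, Sox2, Sox9, Cd44 and Glul were well above background on all 16 arrays, whereas Gfap, Olig2, Prom1, Slc1a2 and Slc1a3 were so on none. Of the 9 tested astroglial and glioma stem markers, 0 passed the unadjusted limit in limma, and their median was -0.30, with 0.11 and -0.02 on slides 3 and 4. The log2 of their summed signal was 12.88 to 13.48 with Losartan and 12.74 to 13.53 with PD123319. Of the oligodendrocyte markers 4 were tested, and Cnp with -1.22 and Sox10 with -0.35 were lower. In scan 2 they were at -0.16 and -0.15. Their summed signal was 10.83 to 11.19 with Losartan and 11.18 to 11.46 with PD123319, and of 8 listed 3 were at background on all 16 arrays. For endothelial markers, to which Flt1 belongs, 5 of 8 were at background on all 16 arrays. The summed signal was 6.14 to 6.53 with Losartan and 5.80 to 7.07 with PD123319. Neuron markers summed to 7.07 to 7.25 and 7.05 to 7.39, and microglia and macrophage markers to 8.17 to 8.66 and 8.18 to 8.71. The part of these markers in the differences above was not tested.

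At 6 h, on other arrays, the same pair of antagonists gave 1326 of 16443 genes (8.06%) at an unadjusted p under 0.05. After adjustment in limma 0 passed, with a lowest adjusted p of 0.234. Per the file headers, the scanner software handled the background of the 6 h arrays with other settings than at 3 h, and the scan days differed. Time and these settings cannot be told apart in what follows. Of the genes of 3 h, 95 also passed at 6 h, which is 4.77% of the 1990, against 882 of all 13615 genes tested at both times. They are 10.8% of these 882, against the 14.6% of all genes tested that passed at 3 h. The direction was the same for 57 of the 95, and the sign was the same for 52.0% of all genes tested at both times. Across genes the differences at 3 h and 6 h had r = 0.01 (Spearman rho 0.04). At 6 h Ctgf was at 0.19, Areg at -0.01, Nppb at 0.06, Dusp6 at 0.04 and Sh2b3 at 0.06. Mgp was at 0.19, Ccrn4l at 0.12 and Cyp26b1 at -0.35. Tnfrsf12a was at 0.27. A test of the difference between the times, fitted to the 32 arrays, gave 1822 of 13615 genes (13.4%) at an unadjusted p under 0.05 and 0 after adjustment in limma (lowest 0.102), so for the genes just named a difference between 3 h and 6 h was not established. The adjusted p of this test was 0.36 for Ctgf.

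By likeness of pattern, the slide-centred levels over the 16 arrays of 3 h were correlated with those of the leading genes across 7963 genes. The genes most like Ctgf were Dpy19l4 (r = 0.889), B3galtl (0.877), Dnd1 (0.851), Wdr77 (0.833) and Nppb (0.831). For Ctnnb1 they were Ywhag (0.993), Cnp (0.992), Hnrnpk (0.984), Aacs (0.981) and Kif5b (0.979), all of which shared with it the low Losartan array of slide 2. For Ccrn4l they were Cacna1s (0.969), Med13l (0.953), Ercc3 (0.951), Hook1 (0.944) and Ppm1d (0.944). The Losartan array of slide 2 stood apart here too. Ccrn4l was at 7.92 on it against 6.03 to 6.52 on the other arrays of that slide, and Hook1 at 7.58 against 6.10 to 6.32.

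The promoter windows of the set of 152 were searched for the motifs of factors downstream of Ang II, on both strands. None of the motifs searched is contained in another. A window was found for 82 of the genes higher with Losartan and for 27 of those lower. The AP-1 motif TGANTCA was in 3.66% and 3.7% of them, against 6.36% of all 27457 promoters. The CRE motif was in 4.88% and 3.7%, against 1.7%, and the TEAD motif in 9.76% and 14.8%, against 11.8%. The E-box CACGTG was in 9.76% and 7.41%, against 5.79%. The EGR motif GCGNGGGCG was in 9 of the 82 and in 0 of the 27, against 4.53%. The CArG box, the motif of SRF, was in 1.22% and 3.7%, against 1.5%. These shares rest on 0 to 9 windows each and carry no test, and a match is not a bound site.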

How the data were processed

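Per the file headers, the authors' scanner software, Agilent Feature Extraction 9.5.3.1, wrote a processed intensity for every spot, from which the background had been taken off. The study's methods name another release. The deposited log2 values equalled the log2 of that processed intensity within 1e-06 in 100% of 561803 values, so no scaling between arrays had been applied, and 38.17% of all deposited values were blank. The processed intensity was used here. Dim spots at 3 h took the error of their signal, outlier spots were left out, spots of a probe were averaged, and probes with more than 2 gaps or not well above background on all 4 arrays of any group were dropped. Of the remaining genes, 230 had a gap on at least 1 array, which the fit dropped for that gene. Cyclic loess (span 0.7, 3 iterations) was run among the 16 arrays of a time, and the 15329 kept probes were averaged to 13628 genes. The number of arrays limits the precision.

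In R 4.3.3 (data.table package, version 1.17.8), limma 3.58.1 fitted the 4 groups, blocked by replicate number, with Benjamini-Hochberg adjustment over all genes. A comparison here is a log2 difference. Its SE and 95% interval are from the same fit, with the spread pooled over the arrays of the 4 groups. The headers give the replicate number as the slide. Arrays of the antagonists with the same number deviated together from their group means, with r of 0.78, 0.28, 0.76 and 0.63. Scripts were tested on simulated data. Of 9466 genes with a RefSeq accession, 8046 matched a current symbol. Figures and motif searches used Python 3.11.15 and matplotlib 3.10.9.

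Genes were named by rule: the 12 highest and 12 lowest differences among eligible genes, up to 4 members of each of 30 gene lists at the unadjusted limit, the qPCR genes and the 5 most alike patterns. Genes of scan 2, and those that held without any single slide, were named after seeing the data. The comparison, its lists and its genes were chosen with earlier results of these data known. Alternatives were no block, the methods' t-test, an unpaired test, 75th percentile scaling, quantile normalization, normexp (offset 50), filters, single probes, the 8 arrays alone, the deposited values, array weights, each slide left out, and each scan alone. The scans were added after seeing the data. The networks and the qPCR values of the study were not analysed here, and results for some genes are not reported here.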

Additional observations from a re-analysis of the deposited data

Results flagged for a closer look

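A total of 39 groups of 4 values were examined, made of the slide differences of named and qPCR genes and of array quality measures. In 3 of them, all genes, 1 of the 4 differences Ang II+Los minus Ang II+PD123319 lay far from the others, each time on slide 2. Chance alone picks out about 1 group in 20 in this way, and the named genes had been picked for large differences in this contrast. Areg, the gene of amphiregulin, differed by 1.53 on slide 2 and by 0.40 to 0.54 on the other slides. Cat, the gene of catalase, differed by -3.15 on slide 2 and by -0.76 to -0.31 on the others. Fam69a, which RefSeq now names Dipk1a, differed by 2.32 on slide 2 and by 0.12 to 0.47 on the others. The residual SD of the Ang II+Los array of slide 2 was 0.425, the highest of the 16 arrays of 3 h. Its part in these values was not tested.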

How the results depend on the processing

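The 1990 genes at an unadjusted p under 0.05 became 466 with no replicate block, 562 by the methods' t-test paired by slide (0 after Benjamini-Hochberg), 193 by an unpaired test, 715 with the 8 arrays alone and 808 with array weights. Leaving out 1 slide gave 403 to 2576, with 421 without slide 1 and 403 without slide 2. The scans, added after seeing the data, gave 3377 for slides 1 and 2 and 250 for slides 3 and 4. With the other scalings, filters and values the count was 1413 to 2517. The percent of these genes higher with Losartan, 51.9, became 69.4 by the paired test, 67.4 by the unpaired test, 67.4 with the 8 arrays, 67.2 with array weights, 73.2 for slides 3 and 4, and 47.2 to 69.0 when 1 slide was left out. It was below 50 with no replicate block (42.7), with slides 1 and 2 (43.6), with 75th percentile scaling (46.2), with no filter (49.8) and with the deposited values (49.4). Genes at an adjusted p under 0.05 numbered 0 under every setting except slides 1 and 2 alone, with 234. At 6 h, the 1326 genes became 170 with no replicate block and 749 to 1706 with 1 slide left out, with 855 without slide 2 and 749 without slide 4. The difference between the times gave 0 genes after adjustment under every setting run.

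Among single genes, 2584 values kept their direction and their side of the limit, 921 fell short of the limit, 5 came to pass it and 19 changed sign. With slides 3 and 4 alone the sign changed for Actn1 (0.061), Bhlhe40 (0.22), Car9 (0.075), Cfl1 (0.13), Egr1 (0.53), Etv1 (0.013), Hsph1 (0.10), Ltbp1 (0.056), Peli1 (-0.066), Ppp3ca (0.067), Ppp3cb (-0.034), Prc1 (0.027), Prcp (0.034), Sparc (0.047) and Stip1 (0.080). With no filter it changed for Elovl4 (-0.016), Med13l (-0.25) and Zbed4 (-0.074), and with the deposited values for Mcm4 (0.044). The cause was not tested. Signals near background limit what the angiotensin receptors can show here.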

Other observations

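Of 16 tested genes of the Arp2/3 complex and actin nucleation, 0 were higher and 2 lower at the unadjusted limit in limma. These were Arpc4 and Cap1, which binds actin monomers, with -0.95, and Cap1 was at -0.04 on slides 3 and 4. Of 16 tested genes in the p53 list, Hipk2, a kinase, was higher with 0.58 and Cdkn1a, a p53 target that inhibits the cell cycle, was lower with -0.54. On slides 3 and 4 these were at 0.13 and -0.04.

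For 1554 genes with several probes, the differences of the first and the last probe of a gene correlated across genes with r = 0.311 on slide 1, 0.256 on slide 2, 0.183 on slide 3 and 0.169 on slide 4. They had the same sign in 62.8%, 59.4%, 63.8% and 63.9% of these genes. Genes are not independent replicates, and the probes of a gene share its array.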
